A study of Mus musculus with 6 samples.

Results

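The metabotropic glutamate receptors were examined through 7 genes of the family, Grm2, Grm3, Grm4, Grm5, Grm6, Grm7 and Grm8, out of 22180 genes measured on 6 arrays of mouse hippocampus. The genes were taken by symbol. Each was read from the probe sets that the platform annotation pairs with that symbol alone, and from the brightest of these where a gene had more than 1. In all, 9 probe sets met this rule and 1 further probe set, which the annotation shares between Grm8 and Mir592, did not. The samples were hippocampi of 3 mice lacking the aryl hydrocarbon receptor gene (genotype Ahr-KO) and 3 wildtype mice, each on its own array. The labels give no strain, age or sex, and do not say which part of Ahr the allele lacks or whether it is absent in every cell. The tissue came from hemibrains, and the series asks what the aryl hydrocarbon receptor does for hippocampal memory, neurogenesis and synapses.

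Metabotropic glutamate receptors are G protein-coupled receptors that work as dimers and bind glutamate in a large extracellular domain. Group I receptors, here Grm5, act through Gq, phospholipase C and calcium release, mostly on the postsynaptic side, and drive a form of synaptic depression that depends on new protein. Group II (Grm2, Grm3) and group III (Grm4, Grm6, Grm7, Grm8) receptors act through Gi and Go to lower cyclic AMP and, at many terminals, transmitter release. Grm2 is known from mossy fibre terminals, Grm3 from neurons and astrocytes, Grm7 from presynaptic active zones, Grm4 from cerebellar granule cells and Grm6 from ON bipolar cells of the retina.

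The aryl hydrocarbon receptor binds DNA with its partner ARNT at elements whose core is GCGTG. RefSeq promoter sequences of GRCm38.p6 were matched by symbol for 5 of the 7 genes (8 start sites). The 250 bases before each start site were searched for GCGTG on both strands, the reverse match being CACGC. The core stood before 3 of the 8 start sites, in 2 genes, Grm7 and Grm8, and in 28.2% of all 32851 windows of the same length. A match is a description of the letters and not a binding site. The upstream windows of Grm2, Grm3 and Grm8 are shown because, of the 8, they are the ones that lie outside the annotated span of their gene, with the core in capitals.

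Grm2, chr9:106656110-106656359, minus strand: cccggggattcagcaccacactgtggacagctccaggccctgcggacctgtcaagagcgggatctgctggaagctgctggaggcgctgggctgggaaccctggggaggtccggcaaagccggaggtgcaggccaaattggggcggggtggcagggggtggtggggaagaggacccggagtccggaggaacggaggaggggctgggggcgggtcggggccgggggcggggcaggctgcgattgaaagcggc
Grm3, chr5:9725353-9725602, minus strand: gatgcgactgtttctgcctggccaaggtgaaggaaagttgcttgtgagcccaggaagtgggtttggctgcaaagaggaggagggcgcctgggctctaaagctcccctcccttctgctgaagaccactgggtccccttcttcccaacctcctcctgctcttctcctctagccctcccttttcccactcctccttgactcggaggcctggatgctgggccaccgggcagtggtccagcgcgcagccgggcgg
Grm8, chr6:28135147-28135396, minus strand: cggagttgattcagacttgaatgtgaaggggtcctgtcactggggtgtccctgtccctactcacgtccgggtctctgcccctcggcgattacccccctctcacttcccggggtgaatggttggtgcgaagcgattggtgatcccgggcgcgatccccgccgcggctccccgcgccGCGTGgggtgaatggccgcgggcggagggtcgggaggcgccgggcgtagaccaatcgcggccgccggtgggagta

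The match of Grm8 began 75 bases before the start site. Grm7 held a pair of matches, 1 on each strand, within 30 bases that lie before both of its listed start sites. Both Grm7 windows hold this same pair, and the 30 bases lie inside the annotated span of the gene.

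Grm7, chr6:110645404-110645433, plus strand: tcagCACGCagcccctccctGCGTGatgat

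The deposited values, which RMA equalises between arrays, had array medians from 5.79 to 5.85 log2 over all probe sets. Ahr, the targeted gene, read 6.62, 6.91 and 6.74 log2 in Ahr-KO mice 1, 2 and 3. In wildtype mice 1, 2 and 3 it read 7.68, 7.50 and 7.44, without overlap between genotypes. The Ahr difference, Ahr-KO minus wildtype, was -0.78 ± 0.10 log2 (SE), or 1.72-fold lower (limma unadjusted p = 4.3e-05). Ahr still missed the threshold over all genes (limma adjusted p = 0.320), as did every other gene. Markers of dentate granule, CA1 and CA2 and CA3 neurons lay above the median gene for 7 of 8, 4 of 4 and 6 of 6 measured genes. This held for 0 of 4 cerebellar granule cell markers and 0 of 5 measured retinal ON bipolar cell markers. Choroid plexus markers (10 of 11 measured) stood apart on Ahr-KO mouse 1 and wildtype mouse 2, where their mean was 1.21 and 0.77 log2 above the mean of the 6 arrays, against -0.56 to -0.46 on the other 4. The receptor differences are therefore also given without these 2 mice.

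No difference between genotypes passed the test for any of the 7 receptor genes. With limma, 0 of 7 passed adjusted p under 0.05, as for all genes (0%). At unadjusted p under 0.05, 0 of 7 were called, where 6.18% of all genes were, 3.53% higher and 2.65% lower in Ahr-KO. No receptor gene had values without overlap between genotypes, which 11.9% of all genes had. All 7 means lay lower in Ahr-KO, as did those of 49.3% of all genes, and the differences were small, from -0.21 (Grm3) to -0.00096 log2 (Grm5). The median difference was -0.08 for the 7 genes and 0.0019 for all genes. With the arrays of single mice left out, Grm2, Grm5 and Grm6 turned to the other sign in at least 1 case each. An exact permutation test between 3 and 3 mice cannot go below p = 0.1, so limma's interval is given for each gene.

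**Figure D1:**
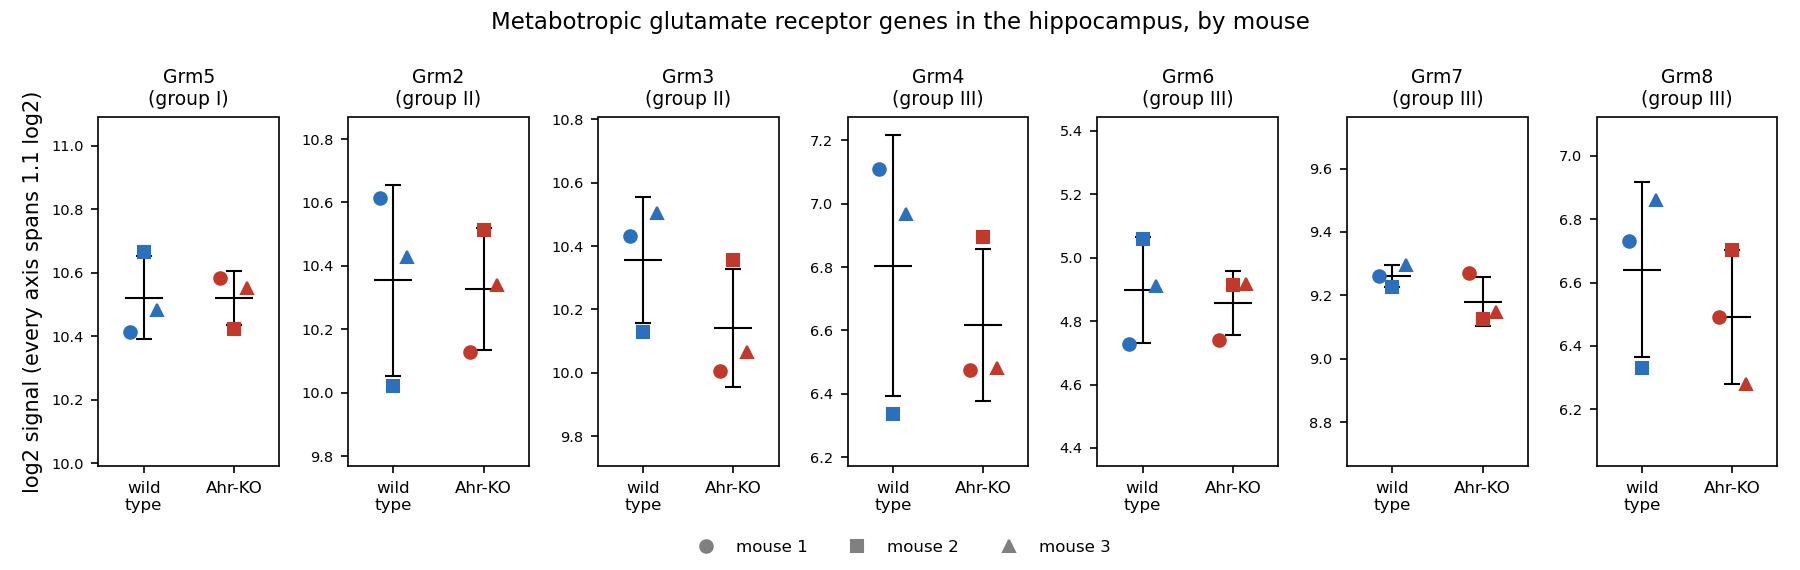
Log2 signal (vertical axes, each spanning 1.1 log2) of the 7 receptor genes in 3 wildtype (blue) and 3 Ahr-KO (red) mice; symbols mark the mouse number, horizontal bars the mean and error bars the SD (n = 3). The genotypes overlap in every panel, and Grm7 has the narrowest range over the 6 arrays, 0.17 log2.

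Grm5, the group I receptor of dendritic spines, read 10.58, 10.42 and 10.55 log2 in Ahr-KO mice 1, 2 and 3 and 10.41, 10.67 and 10.48 in wildtype mice 1, 2 and 3. Its highest and its lowest value were both wildtype, with all 3 Ahr-KO values between them. The means were 10.52 ± 0.09 in Ahr-KO and 10.52 ± 0.13 in wildtype (SD, n = 3 each). The limma difference, Ahr-KO minus wildtype, was -0.00096 ± 0.09 log2 (SE), with a 95% interval of -0.21 to 0.21. Without mice Ahr-KO 1 and wildtype 2 the difference was 0.04.

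Grm2, the presynaptic group II receptor, read 10.13, 10.51 and 10.34 in Ahr-KO mice and 10.61, 10.02 and 10.43 in wildtype mice, in the same order of mice. The wildtype mice alone spanned the whole range of 0.59 log2, or 1.51-fold. The means, 10.33 ± 0.19 and 10.35 ± 0.30 (SD, n = 3 each), differed by -0.03 ± 0.16 (SE; 95% interval -0.39 to 0.33). Without the 2 mice with high choroid plexus genes the difference was -0.09, and without wildtype mouse 1 it was 0.10.

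Grm3, the other group II gene, is the one with the lowest p of the 7. It read 10.01, 10.35 and 10.07 in Ahr-KO mice and 10.43, 10.13 and 10.50 in wildtype mice. Ahr-KO mouse 2 lay above wildtype mouse 2, and the other Ahr-KO mice lay below all wildtype mice. The means were 10.14 ± 0.19 and 10.35 ± 0.20 (SD, n = 3 each). The difference was -0.21 ± 0.13 (SE), or 1.16-fold, with a 95% interval of -0.50 to 0.08 and did not pass (limma unadjusted p = 0.133, adjusted p = 0.832). It was -0.33 without wildtype mouse 2 and -0.32 without Ahr-KO mouse 2, with limma unadjusted p = 0.0288 and 0.0344, but -0.14 without wildtype mouse 3 and also without Ahr-KO mouse 1, and -0.26 (unadjusted p = 0.0774) without both mice with high choroid plexus genes. Its adjusted p lay between 0.647 and 0.973 in 17 alternatives. The 7 astrocyte markers, all measured and all above the median gene, averaged 8.80 to 8.94 log2 in Ahr-KO and 8.94 to 9.01 in wildtype mice. By this mean Ahr-KO mouse 2 lay above wildtype mouse 1, so the genotypes overlapped, and wildtype mouse 2 was highest. Of these genes Fgfr3 did not overlap, at 7.80 to 7.95 in Ahr-KO and 8.10 to 8.37 in wildtype mice (-0.37 ± 0.09, SE; limma unadjusted p = 0.0039). Values without overlap were found for 11.9% of all genes. Genes of the dentate granule, interneuron, endothelium and thalamus lists also had a limma unadjusted p under 0.05. The other 6 astrocyte markers differed by -0.16 (S100b) to 0.04 (Gjb6), and the part of astrocytes in the Grm3 values was not tested. In bulk tissue, fewer cells of a type and less RNA per cell cannot be told apart.

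Among group III genes, Grm4 varied most. It read 6.48, 6.89 and 6.48 in Ahr-KO mice and 7.11, 6.34 and 6.97 in wildtype mice, so that wildtype mice gave both the lowest and the highest value. The range was 0.77 log2 (1.71-fold), and 98.1% of all genes had a smaller SD over the 6 arrays. The means of 6.62 ± 0.24 and 6.80 ± 0.41 (SD, n = 3 each) differed by -0.19 ± 0.20 (SE; 95% interval -0.65 to 0.28). Leaving out wildtype mouse 2 gave -0.42 (limma unadjusted p = 0.0202, adjusted p = 0.783) and leaving out wildtype mouse 1 gave -0.03. The adjusted p lay between 0.771 and 0.987 in 17 alternatives. Without both mice with high choroid plexus genes it was -0.35. Grm4 read above the gene median of the array, taken over the 22180 genes measured, in 3 of 6 mice. The median of the gene means over the 6 arrays was 6.50 log2.

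Grm8, a presynaptic group III receptor, read 6.49, 6.70 and 6.28 in Ahr-KO mice and 6.73, 6.33 and 6.86 in wildtype mice. Wildtype mouse 2 lay below Ahr-KO mice 1 and 2, and the other wildtype mice lay above all Ahr-KO mice. The means, 6.49 ± 0.21 and 6.64 ± 0.28 (SD, n = 3 each), differed by -0.15 ± 0.15 (SE; 95% interval -0.50 to 0.21), and by -0.30 without the 2 mice with high choroid plexus genes. It was -0.04 without Ahr-KO mouse 3 and also without wildtype mouse 3. Like Grm4 it was above the gene median of the array in 3 of 6 mice.

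The microRNA gene Mir592 lies inside Grm8, on the same strand of chromosome 6, and its mature products are given with the seed (bases 2 to 8) in capitals because 1 probe set carries both names.

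mmu-miR-592-5p: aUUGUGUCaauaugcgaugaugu
mmu-miR-592-3p: uCAUCACGuggugacgcaacau

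That probe set averaged 4.57 log2 in Ahr-KO and 4.75 in wildtype mice, a difference of -0.18 beside -0.15 for the Grm8 probe set. It was not tested, since it cannot be assigned to either gene.

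Grm7, the receptor of presynaptic active zones, was the steadiest member. It read 9.27, 9.12 and 9.15 in Ahr-KO mice and 9.26, 9.23 and 9.30 in wildtype mice. Ahr-KO mouse 1 lay among the wildtype mice, and the other Ahr-KO mice lay below them. The means, 9.18 ± 0.08 and 9.26 ± 0.04 (SD, n = 3 each), differed by -0.08 ± 0.07 (SE; 95% interval -0.25 to 0.09), and by -0.14 without the 2 mice with high choroid plexus genes. A second Grm7 probe set, dimmer at a mean of 8.35 log2, differed by -0.05. Only 14.9% of all genes had a smaller SD than Grm7 over the 6 arrays.

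Grm6, the receptor of retinal bipolar cells, was dim in hippocampus, below the gene median on all 6 arrays. It read 4.74, 4.91 and 4.92 in Ahr-KO mice and 4.73, 5.06 and 4.91 in wildtype mice, with the Ahr-KO values inside the wildtype range. The means, 4.86 ± 0.10 and 4.90 ± 0.17 (SD, n = 3 each), differed by -0.04 ± 0.10 (SE; 95% interval -0.28 to 0.19). The difference was 0.10 without the 2 mice with high choroid plexus genes, and -0.16 in the second Grm6 probe set, which averaged 3.83 log2. Detection calls were not used here, so whether Grm6 was detected at all is not known.

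The order of the mice, seen after the values were known, cut across the genotypes for several genes. Grm2, Grm3, Grm4 and Grm8 were each higher in wildtype mice 1 and 3 and Ahr-KO mouse 2 than in wildtype mouse 2 and Ahr-KO mice 1 and 3. Grm5 took the opposite order, lower in the former mice than in the latter. Grm2 and Grm5 ranked the 6 mice in exactly reversed order. Their correlation over the 6 arrays was r = -0.97 (exact two-sided permutation p = 0.00278, adjusted p = 0.0278) and rho = -1 (exact permutation p = 0.00278, adjusted p = 0.0278), where p = 0.00278 is the smallest that 720 pairings can give. Without the 2 arrays farthest from the Grm2 median, which were also those with high choroid plexus genes, r was -0.95.

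This was 1 of 10 pairs tested among the 5 genes whose values did not fall into separate clusters (a largest gap over 50% of the range), and p-values were adjusted over the 10. How many other genes run against Grm2 or Grm5 as closely was not counted. Of 11089 other genes of above-median level, 147 exceeded r = 0.9 with Grm2 and 202 with Grm5, so close profiles were common. Grm3 and Grm8 had r = 0.89 (exact permutation p = 0.0417, adjusted p = 0.206) and rho = 0.83 (exact permutation p = 0.0583, adjusted p = 0.292), and r = 0.99 without the 2 arrays farthest from the Grm3 median. No pair but Grm2 with Grm5 passed after adjustment, and by r the pairs among Grm2, Grm3 and Grm8 had adjusted p from 0.206 to 0.231. Grm4 and Grm6 fell into separate clusters and no r is given for their pairs. Within a genotype 3 mice are too few for a correlation.

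**Figure D2:**
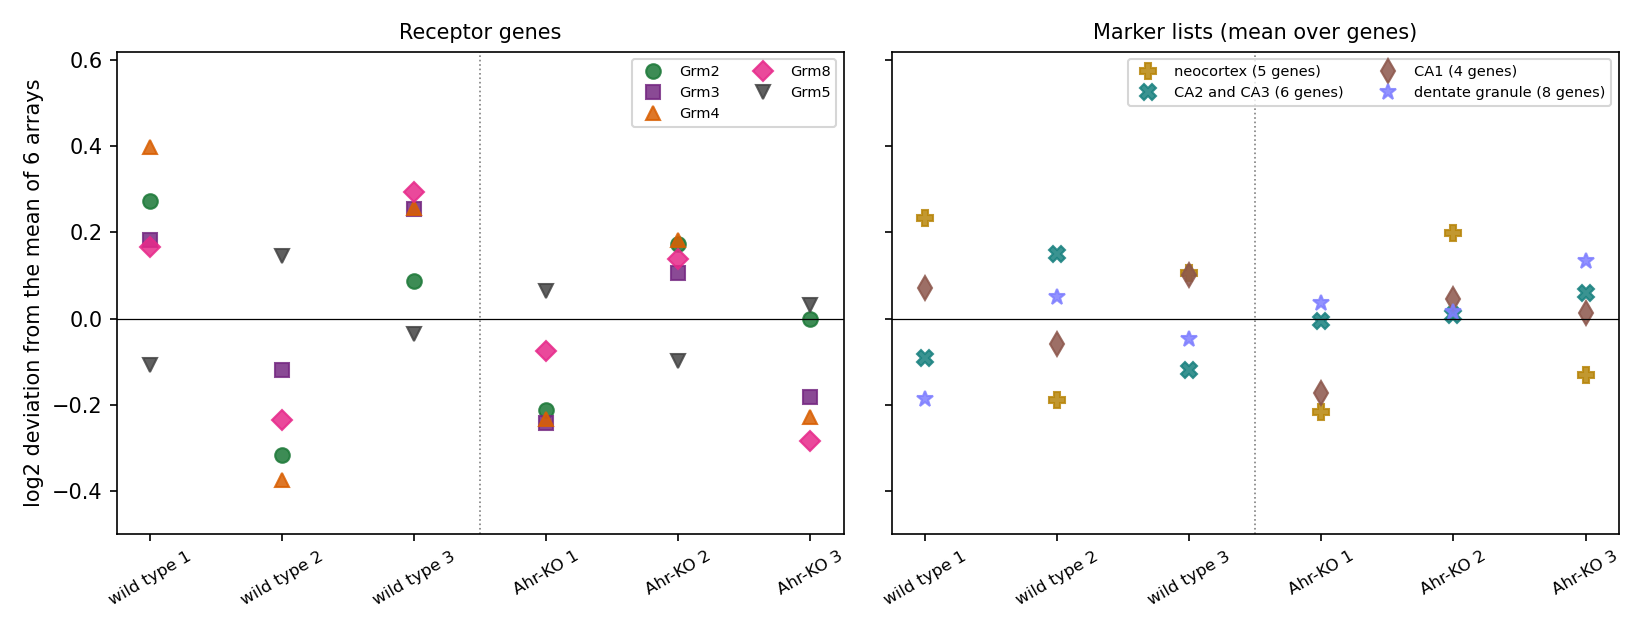
Log2 deviation from the mean of the 6 arrays (vertical axes) in each mouse, for 5 receptor genes (left) and for the mean of 4 marker lists (right); the dotted line separates wildtype from Ahr-KO mice. Grm2, Grm3, Grm4 and Grm8 are high in wildtype mice 1 and 3 and Ahr-KO mouse 2, and Grm5 is low there. The mean of the neocortex markers is also high there (0.23, 0.11 and 0.20), though Fezf2 takes the reverse division and Rorb neither. The mean of the CA1 markers is high in the same mice (0.07, 0.10 and 0.05). That of the dentate granule markers is lower there than in the other mice (-0.19, -0.05 and 0.01).

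Of 15 marker lists 2, neocortex and CA1, had means that divided the mice as Grm2 did, and 1, dentate granule, divided them in reverse. For neocortex the mean of 5 markers, all measured and all above the median gene, stood 0.23, 0.11 and 0.20 log2 above its overall mean in wildtype mice 1 and 3 and Ahr-KO mouse 2, and at -0.19, -0.22 and -0.13 in wildtype mouse 2 and Ahr-KO mice 1 and 3. Its level ranged from 8.62 to 9.04 in Ahr-KO and from 8.65 to 9.07 in wildtype mice, so the genotypes overlapped. Of its members, Lamp5 (8.57 to 9.53), Tbr1 (7.90 to 8.73) and Cux2 (7.08 to 7.74) followed this division. Fezf2 took the reverse one, at 9.55 to 9.57 against 9.59 to 9.75, and Rorb neither. The CA1 mean stood at 0.07, 0.10 and 0.05 in wildtype mice 1 and 3 and Ahr-KO mouse 2, against -0.06, -0.17 and 0.01 in wildtype mouse 2 and Ahr-KO mice 1 and 3. Of its 4 genes Wfs1 and Mpped1 followed the division, Fibcd1 took the reverse one and Man1a neither. The dentate granule mean stood at -0.19, -0.05 and 0.01 against 0.05, 0.04 and 0.13, and of its 8 genes 1, Prox1, took the reverse division. Among CA2 and CA3 markers, Amigo2 read 6.99, 7.03 and 7.16 in wildtype mice 1 and 3 and Ahr-KO mouse 2 and 7.73 to 7.90 in the other 3, the reverse division, as did the kainate receptor subunit Grik4 at 8.67 to 8.70 against 8.90 to 9.19. Coch, also of that list, took the division of Grm2, and Bok, Cdh24 and Iyd neither. Of 10 measured choroid plexus markers Kl, Otx2, Sostdc1 and Slc4a5 took the reverse division and 6 neither. In the remaining lists Vip, Aldh1l1 and Drd1 took the division of Grm2 and Gjb6 the reverse one. The division was taken from Grm2 itself, and the share of all genes that follow it is not given here.

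A fit with the mean of the neocortex markers as a covariate was added after the values were seen, and that list was taken because it divided the mice in this way. The differences in that fit were 0.08 for Grm2, -0.13 for Grm3, -0.04 for Grm4, -0.05 for Grm5, -0.06 for Grm6, -0.09 for Grm7 and -0.06 for Grm8, and none passed. The share of cortical or subicular tissue in each dissection was not measured, and the part of any of these regions in the receptor values was not tested.

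For the 5 receptor genes without separate clusters, the genes of above-median level with the most similar profile over the 6 arrays were looked up by Pearson r. High values were common, since between 65 (Grm7, Grm8) and 202 (Grm5) of 11089 other genes exceeded r = 0.9. Grm3 was closest to Prkar2b, a regulatory subunit of protein kinase A (r = 0.997), and Fbxw7, a ubiquitin ligase subunit (r = 0.996). Grm2 was closest to Tmem200b (0.988) and to Gsg1l, an auxiliary AMPA receptor protein (0.987). Grm5 was closest to Mpdz, a PDZ scaffold (0.990), and Kdm7a, a histone demethylase (0.986). For Grm8 these were Pcyt1a (0.990) and Ramp3, a receptor activity-modifying protein (0.989), and for Grm7 Sestd1 and the bicarbonate transporter Slc4a10 (0.979 each).

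The wider pathway was followed through 7 lists (glutamate supply, Gq and Gi coupling, scaffolds, signal termination, receptor-dependent depression and other class C receptors), with 116 of 133 genes measured. None passed over all genes. At unadjusted p under 0.05 with limma, 2 were higher and 4 lower in Ahr-KO, 5.17% of the genes measured beside 6.18% of all genes, and the median difference was 0.0024 log2. With an intensity trend in the variance the count was 11 (9.48%, beside 6.52% of all genes), and without wildtype mouse 3 it was 3 (2.59% beside 5.07%).

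**Figure D3:**
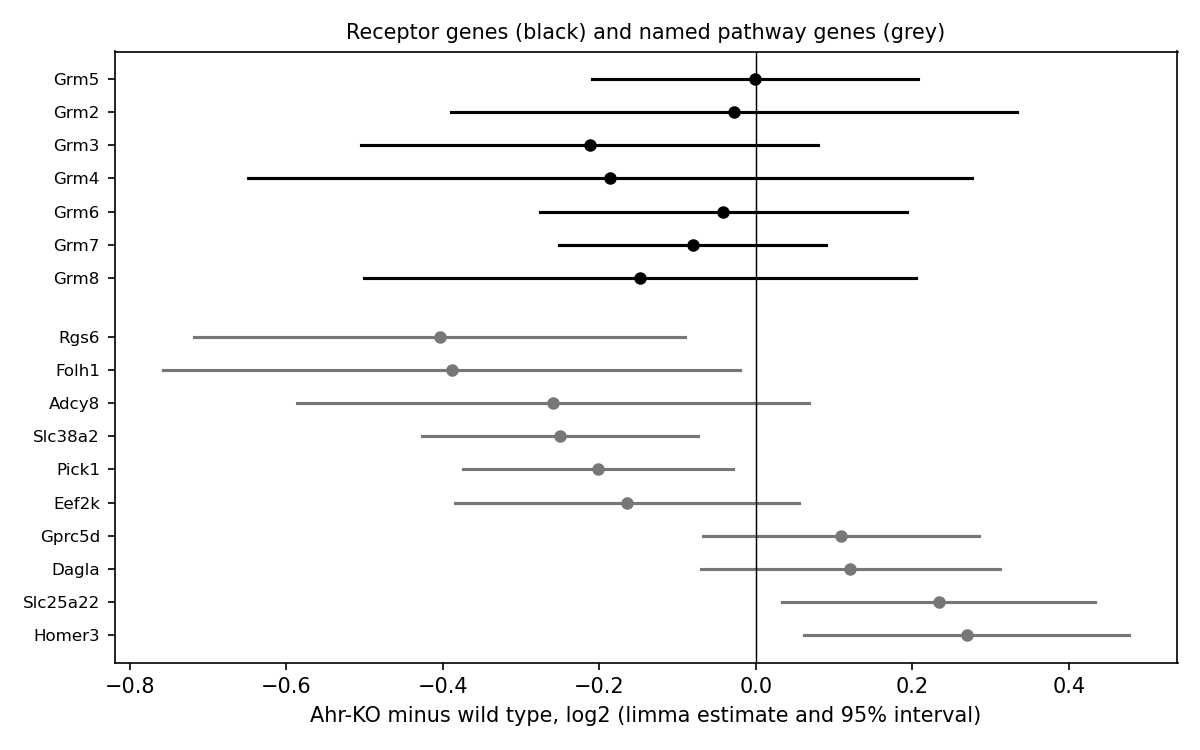
Ahr-KO minus wildtype difference in log2 (points) with limma's 95% interval (bars) for the 7 receptor genes (black) and the 10 named pathway genes (grey). All 7 receptor intervals cross 0; those of Homer3, Slc25a22, Pick1, Slc38a2, Folh1 and Rgs6 do not, and none of these 6 genes passed after adjustment over all genes.

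On the ligand side 21 genes were measured. Of these, 3 had an unadjusted p under 0.05, 1 upward and 2 downward, beside 6.18% of all genes (3.53% higher and 2.65% lower). Values did not overlap between genotypes for 4 of the 21, beside 11.9% of all genes. The 3 genes are named because of their p in these same data. Slc38a2, a neuronal glutamine transporter, read 9.58 to 9.62 in the 3 Ahr-KO mice and 9.74 to 9.92 in the 3 wildtype mice (-0.25 ± 0.08, SE), without overlap and with an unadjusted p under 0.05 in all 17 alternatives (limma adjusted p = 0.770, range 0.566 to 0.973). Slc25a22, the mitochondrial glutamate carrier, read 11.03 to 11.11 in Ahr-KO and 10.76 to 10.99 in wildtype mice (0.23 ± 0.09), also without overlap. Its unadjusted p was under 0.05 in 11 of 17 alternatives, and not without both mice with high choroid plexus genes (0.22, limma unadjusted p = 0.1002). Folh1, the peptidase that cleaves N-acetylaspartylglutamate, a peptide agonist of Grm3, read 6.91, 6.91 and 7.47 in Ahr-KO mice and 7.31, 7.51 and 7.65 in wildtype mice (-0.39 ± 0.16). Ahr-KO mouse 3 overlapped the wildtype values of Folh1, and with 1 mouse left out the difference ran from -0.58 (without Ahr-KO mouse 3) to -0.29 (without Ahr-KO mouse 1). Without both mice with high choroid plexus genes it was -0.28 (limma unadjusted p = 0.201), and 10 of 17 alternatives had an unadjusted p under 0.05.

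In the Gq list that serves group I receptors, 0 of 14 measured genes had an unadjusted p under 0.05 with limma. The lowest p belonged to Dagla, which makes the endocannabinoid 2-arachidonoylglycerol, at 0.12 ± 0.08 (SE). In the Gi list of groups II and III, 0 of 21 did. Its lowest p belonged to Adcy8, a calcium-stimulated adenylyl cyclase, at -0.26 ± 0.14. Adcy8 ranked the 6 mice in the same order as Grm3, but how many genes share that order was not counted. Of 11089 other genes of above-median level, 176 exceeded r = 0.9 with Grm3. With 1 mouse left out the Adcy8 difference ran from -0.39 (without Ahr-KO mouse 2 or wildtype mouse 2) to -0.19 (without wildtype mouse 3 or Ahr-KO mouse 1).

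Among 15 measured scaffolds and binding partners an unadjusted p under 0.05 was found for 1 gene in each direction. Of all genes 3.53% were higher and 2.65% lower at this threshold. Homer3, which ties group I receptors to the postsynaptic density, read 8.03 to 8.13 in Ahr-KO and 7.66 to 7.95 in wildtype mice, 1.21-fold higher (0.27 ± 0.09, SE; limma adjusted p = 0.770, range 0.590 to 0.973 over 17 alternatives). Pick1, a PDZ protein that binds the Grm7 tail, read 7.29 to 7.35 in Ahr-KO and 7.43 to 7.58 in wildtype mice, 1.15-fold lower (-0.20 ± 0.08), with an unadjusted p under 0.05 in 11 of 17 alternatives. Neither gene had overlapping genotypes, as for 11.9% of all genes.

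The list of receptor kinases, arrestins and RGS proteins, which end G protein signalling, had 20 measured genes. At unadjusted p under 0.05 with limma, 0 were higher and 1 was lower (3.53% and 2.65% of all genes). It was Rgs6, which read 7.35, 7.79 and 7.47 in Ahr-KO mice and 8.14, 7.75 and 7.92 in wildtype mice, 1.32-fold lower (-0.40 ± 0.14, SE), with Ahr-KO mouse 2 above wildtype mouse 2. Its limma unadjusted p was 0.0177 (adjusted p = 0.772). In the neocortex covariate fit, added after the values were seen, the Rgs6 difference was smaller, -0.31 ± 0.07 (SE). Its limma unadjusted p there was lower, 0.0040, and it did not pass (adjusted p = 0.611). None of the 12 measured genes of receptor-dependent depression had an unadjusted p under 0.05 with limma, the lowest p being that of Eef2k, the elongation factor 2 kinase (-0.16 ± 0.10). Nor did any of 13 other class C receptors, where Gprc5d, dim on all arrays, came first (0.11 ± 0.08).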

How the data were processed

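Each probe set has 1 deposited log2 signal per array, summarised by RMA. The submitters' processing notes also list Affymetrix Expression Console, and no versions. RMA equalises the arrays and compresses fold changes. The probe sets' genome build is not given in the sources used here. Of 41345 probe sets 23521 had 1 symbol, updated through Entrez IDs to GRCm38.p6 (23328 matched), and the brightest per gene was kept (22180 genes, no filter on dim ones). The genotype test was that of limma 3.58.1, run in R 4.3.3 (eBayes, no covariate, two-sided, Benjamini-Hochberg over all genes, threshold 0.05). The fit was also run on simulated data, with outcomes not given here. Their errors were independent between genes, so that run does not check the test where many genes share a pattern over the arrays. Correlations used scipy 1.17.1. Every array is a mouse of its own per the labels, and the main test did not treat equal mouse numbers as pairs. Same-numbered deviations from the genotype means correlated at -0.15, -0.22 and 0.05, and differently numbered ones at -0.09 to 0.23. Centring within each genotype constrains these values, so they cannot exclude a pairing. The number of arrays limits the precision.

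The members and lists were chosen with earlier results of these data known. Named pathway genes were those with unadjusted p under 0.05 in a list or, failing that, its lowest p, and the 2 genes most like each member (not for Grm4 and Grm6, whose values fell into separate clusters). The alternatives were 17, of which the neocortex covariate was added after the data were seen. Of the 133 pathway genes 17 were not analysed here. Marker lists covered 15 cell types or regions. No scan dates were used here.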

Additional observations from a re-analysis of the deposited data

How the results depend on the processing

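The count of receptor genes past adjusted p was 0 in all 17 alternatives. At unadjusted p under 0.05 the count of receptor genes was 0 in all alternatives but those leaving out 1 mouse, where it ran from 0 to 2 (2 without wildtype mouse 2, 1 without Ahr-KO mouse 2). Pathway genes at unadjusted p under 0.05 numbered 6, then 11 with an intensity trend in the variance, and 3 to 8 with 1 mouse left out. With the mouse number as a replicate block 0 receptor genes and 4 pathway genes had an unadjusted p under 0.05, and 0 passed after adjustment. With 1 mouse of each genotype per number, that fit cannot change a difference, so the signs were fixed in advance. The fits with an intensity trend or robust variances leave the differences unchanged too. Grm3, Grm4, Grm7 and Grm8 kept a lower mean in Ahr-KO in every alternative. Grm2 turned to 0.014 with choroid plexus markers and 0.082 with neocortex markers as a covariate, and ran from -0.19 to 0.10 with 1 mouse left out. Grm5 turned to 0.0048 with array weights, 0.0068 with quantile normalization again and 0.039 without both mice with high choroid plexus genes, and ran from -0.055 to 0.072. Grm6 turned to 0.097 without those mice, ran from -0.13 to 0.04, and had no value once dim genes were dropped. The cause of these turns was not tested. The named pathway genes kept their direction in the alternatives run. With 3 mice a genotype, the 95% interval reached from -0.65 to 0.28 for Grm4 and from -0.25 to 0.09 for Grm7.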
